A study of Mus musculus with 6 samples.

Results

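Imprinted genes were followed in gene-level read counts from differentiated KH2 mouse embryonic stem cells with and without forced HOXA13 expression. The 43 members are the rows whose symbol equals a name on a list of well-known mouse imprinted genes, out of 24393 rows listed in each library, and 37 of the 43 passed the filter on low counts that kept 13600 genes for testing. KH2 cells carry a doxycycline-responsive transactivator and a docking site for an inducible gene. Both groups, CONTROL and HOXA13 with 3 libraries each, are KH2 cells that the labels give as strain C57/BL/6 and that were plated on the mesoderm-derived M15 feeder line and treated with Activin-A, CHIR, Noggin and basic fibroblast growth factor to obtain definitive endoderm, the germ layer of the gut epithelium. The shared protocol added doxycycline (1.25 µg/ml) on day 4. On day 6 a sort took the cells that carried both surface proteins CXCR4 and E-cadherin. Their RNA was collected 1 day later, with doxycycline still in the medium. The inserted gene in the HOXA13 group was human HOXA13, brought into the line by selection of targeted clones. Whether the CONTROL cultures also received doxycycline is not stated apart from the shared protocol. The study's methods call the 3 samples of each group biological replicates, and whether each was a separate clone or a separate culture is not stated.

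Imprinted genes are expressed mainly or only from the allele inherited from one parent. Most lie in clusters around an imprinting control region, a CpG-rich stretch that carries DNA methylation from one germline, and many clusters pair a protein-coding gene with a long noncoding RNA from the opposite allele. Paternally expressed genes such as Igf2, Peg10 and Mest are known as growth promoters of the fetus and placenta, and maternally expressed genes such as H19, Cdkn1c, Phlda2 and Igf2r as growth restrictors. In embryonic stem cells the methylation of control regions is kept by ZFP57, which binds the methylated hexamer TGCCGC and recruits TRIM28, and prolonged culture of such cells is known to disturb it. The counts here do not separate the parental alleles, so they give the total level of each gene and not its allelic state.

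Promoters of 4 members whose levels did not overlap between the groups are printed as examples, since they differ in how many CpG and ZFP57 hexamers they hold. Each run below is the 250 bases upstream of a RefSeq transcript start, taken from the RefSeq table on GRCm38.p6 and matched exactly to a single place on build mm9, which the files use. Capitals mark the ZFP57 hexamer TGCCGC on either strand, which reads GCGGCA on the opposite strand. Nnat (chr2:157385564-157385813, plus strand) has 12 CpG in this window and no hexamer, Mest (chr6:30687800-30688049, plus strand, the second of 3 promoters) has 14 CpG and 2 hexamers, Phlda2 (chr7:150688430-150688679, minus strand) has 21 CpG and no hexamer, and Zdbf2 has an upstream promoter (chr1:63246682-63246931, plus strand) with 13 CpG and 3 hexamers and a second one (chr1:63319593-63319842, plus strand) with 26 CpG and none.
Nnat: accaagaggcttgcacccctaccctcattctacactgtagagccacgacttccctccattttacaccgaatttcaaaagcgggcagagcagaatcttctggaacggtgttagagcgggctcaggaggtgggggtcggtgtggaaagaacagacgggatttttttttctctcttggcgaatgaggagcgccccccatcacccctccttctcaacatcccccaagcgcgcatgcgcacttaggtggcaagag
Mest: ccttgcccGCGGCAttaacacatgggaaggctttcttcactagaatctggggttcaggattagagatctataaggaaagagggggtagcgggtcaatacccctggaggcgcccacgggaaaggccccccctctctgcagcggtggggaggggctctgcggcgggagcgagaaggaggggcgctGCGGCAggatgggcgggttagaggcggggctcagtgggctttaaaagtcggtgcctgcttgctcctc
Phlda2: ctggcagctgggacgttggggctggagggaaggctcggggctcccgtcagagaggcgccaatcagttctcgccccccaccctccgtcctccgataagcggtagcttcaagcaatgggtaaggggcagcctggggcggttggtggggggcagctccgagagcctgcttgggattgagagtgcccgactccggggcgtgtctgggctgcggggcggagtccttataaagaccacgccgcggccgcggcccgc
Zdbf2 upstream promoter: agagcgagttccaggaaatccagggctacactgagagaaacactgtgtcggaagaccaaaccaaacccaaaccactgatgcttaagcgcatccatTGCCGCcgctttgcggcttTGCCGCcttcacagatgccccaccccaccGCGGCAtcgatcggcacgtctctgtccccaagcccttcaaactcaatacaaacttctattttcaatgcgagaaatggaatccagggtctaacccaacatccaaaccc
Zdbf2 second promoter: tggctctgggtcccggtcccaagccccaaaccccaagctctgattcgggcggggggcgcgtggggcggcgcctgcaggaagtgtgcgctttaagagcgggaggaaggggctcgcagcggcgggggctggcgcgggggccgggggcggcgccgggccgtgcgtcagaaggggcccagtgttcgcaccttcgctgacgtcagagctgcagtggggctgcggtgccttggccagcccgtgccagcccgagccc
The table held 54 promoters of 35 of the 43 members. The hexamer was present in 8 of these 54 (14.8%), in 1833 of 13077 promoters of tested genes (14.0%) and in 2850 of 32851 promoters in all (8.68%). The median number of CpG per window was 10 for the members, 15 for tested genes and 6 for all promoters. Of the promoters not printed, the first of Mest (chr6:30683256-30683505) has 7 CpG and no hexamer and the third overlaps the second. The 2 promoters of Grb10 have 40 and 8 CpG, the 3 promoters of Slc38a4 have 3, 5 and 5 CpG, and none of these 5 holds the hexamer. A match describes the letters in the window and is not a binding site.

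The members ranged from barely detected to abundant. Values are given as CPM, which are counts divided by the TMM-normalised library size, in the order of replicates 1, 2 and 3. The libraries held between 12279884 and 17331638 counts and between 14009 and 15785 genes with a count. A floor of 3 counts stood for 0.176 to 0.240 CPM. Per kilobase of annotated exon, which allows a comparison between genes, the mean level over the 6 libraries was 433 CPM for Igf2, 363 CPM for Peg10, 96.4 CPM for Slc38a4, 78.5 CPM for Gnas, 76.3 CPM for Impact, 73.1 CPM for Cdkn1c and 57.3 CPM for Phlda2. Without correction for length, 10 members had a mean of at least 100 CPM. The 6 members that did not pass the filter, Rtl1, Asb4, Snrpn, Kcnq1, Rasgrf1 and Nap1l5, reached at most 0.851 CPM in any library.

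**Figure D1:**
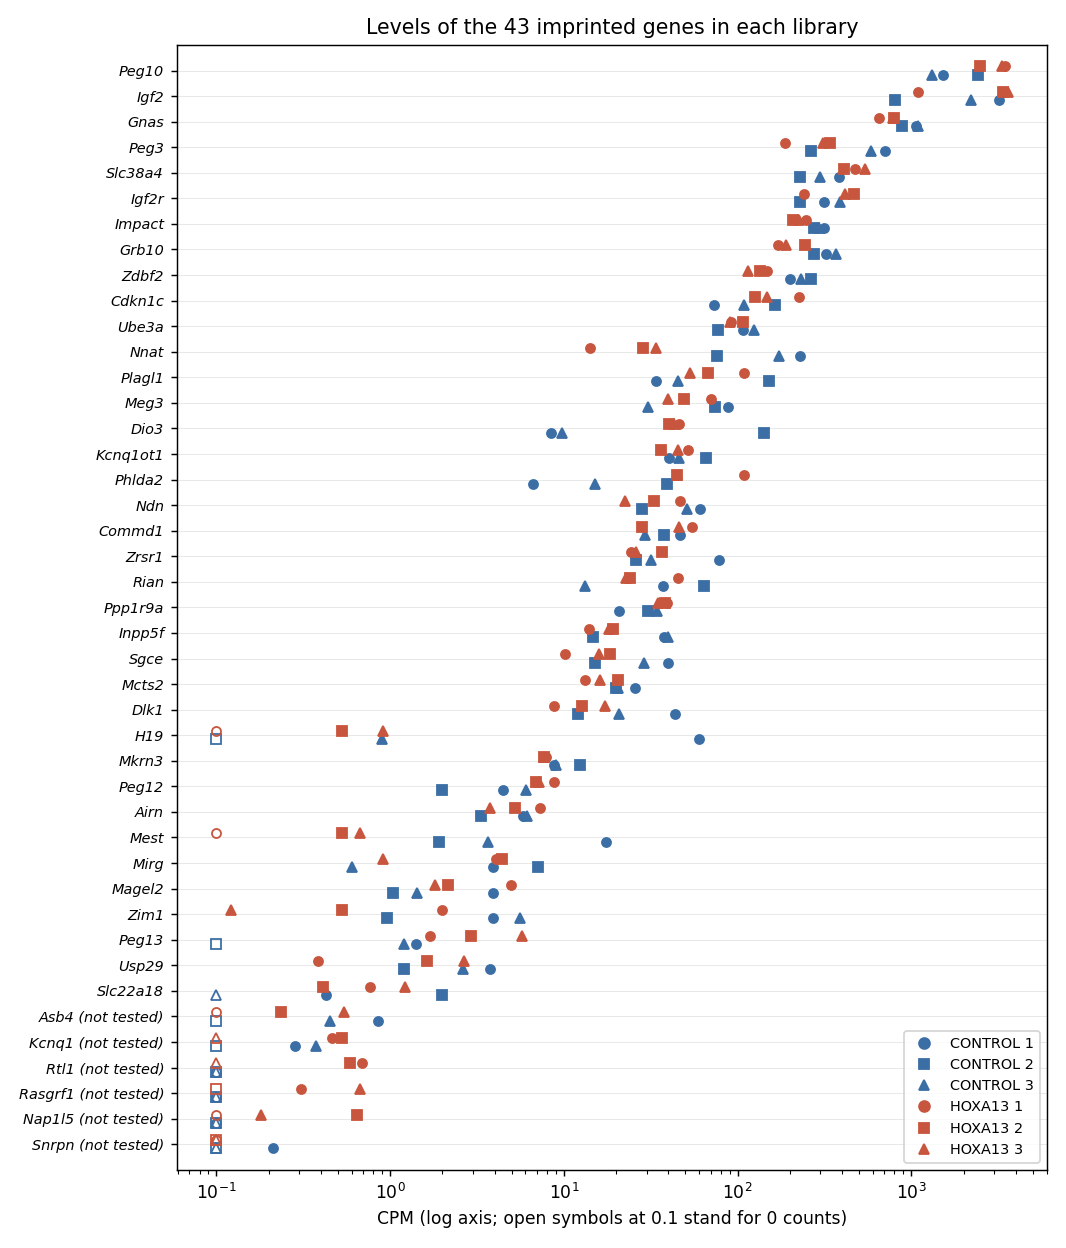
CPM of the 43 imprinted genes in each library on a log axis, sorted by mean, with CONTROL in blue, HOXA13 in red, one symbol per replicate number and open symbols at 0.1 for 0 counts. Peg10 and Igf2 lie at 805 CPM or more in every library, while the HOXA13 points of Nnat lie below all CONTROL points and the CONTROL 1 point of H19 stands alone at 59.7 CPM.

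Before the comparison, the libraries themselves need a description. A row under the human identifier ENSG00000106031 had 0 counts in each CONTROL library and 2497, 7666 and 6572 counts in HOXA13, and mouse Hoxa13 had at most 10 counts in any library. CONTROL 2 stood apart from the other CONTROL libraries, with a Spearman rho across the tested genes of 0.908 with CONTROL 1 and 0.931 with CONTROL 3, against 0.977 between CONTROL 1 and 3 and 0.963 to 0.986 among the HOXA13 libraries. Of the 37 tested members, CONTROL 2 had the highest or lowest CONTROL value in 34 (91.9%), against 81.9% of all tested genes. Markers of other cells also differed between libraries. The summed level of 22 genes of mesenchyme and the M15 feeder was 15341, 4016 and 12389 CPM in CONTROL against 3124, 6932 and 6896 CPM in HOXA13, and 4 of the 22 had no overlap between the groups, with Thy1 higher and Postn, Wt1 and Sparc lower in HOXA13, where 20.0% of all tested genes had none. The sum of 16 epithelial genes was 2369 to 8587 CPM in CONTROL against 10766 to 12555 CPM in HOXA13, and 13 of the 16 had no overlap, all higher in HOXA13. The 12 pluripotency genes, none without overlap, summed to 146, 1616 and 251 CPM in CONTROL against 1003, 571 and 574 CPM in HOXA13. The 12 definitive endoderm genes summed to only 122 to 192 CPM in CONTROL against 81.1 to 122 CPM in HOXA13, and 1 of the 12, Eomes, had no overlap (49.0 to 111 CPM and 24.4 to 41.9 CPM). Of the defining markers, Cer1 had 0 counts in every library, Sox17 was at 0.975 to 4.84 CPM and Foxa2 at 1.76 to 5.04 CPM, and Gata4 reached 31.9 CPM. Of 12 visceral endoderm and yolk sac genes, with sums of 168 to 438 CPM in CONTROL against 126 to 281 CPM in HOXA13, Afp, Ttr and Apoa4 had 0 counts in every library, while Apoe reached 414 CPM, Dab2 reached 106 CPM, and Cubn was at 8.95 to 9.15 CPM in CONTROL and 5.70 to 7.15 CPM in HOXA13, the 1 gene of the list without overlap. In bulk RNA, fewer cells of a type and less RNA per cell cannot be told apart.

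**Figure D2:**
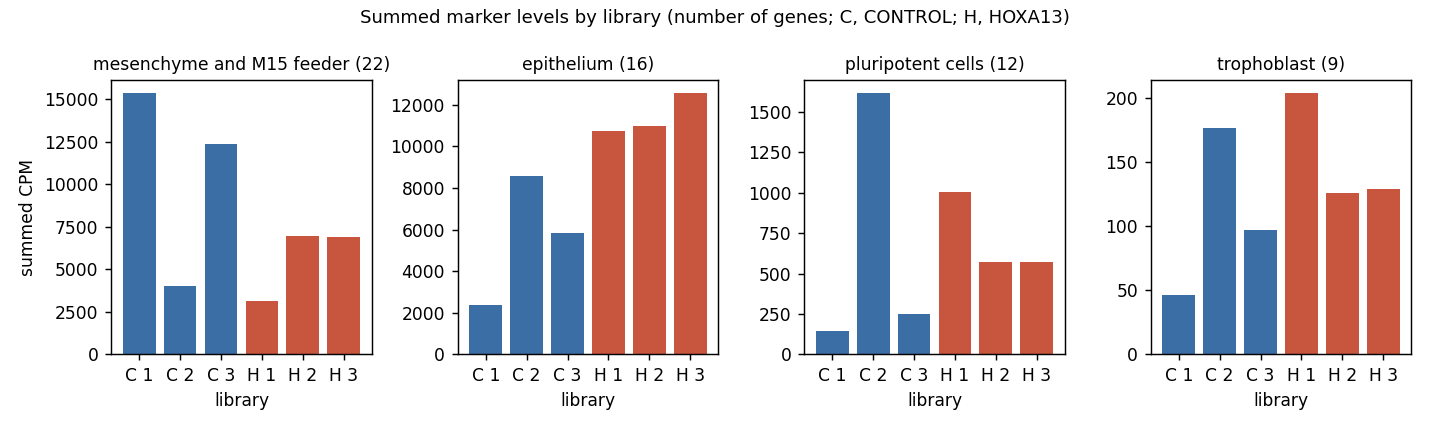
Summed CPM of 4 marker lists in each library (C, CONTROL in blue; H, HOXA13 in red), with the number of genes in each list in its panel title. Mesenchyme and feeder genes are highest in CONTROL 1 (15341 CPM) and CONTROL 3 (12389 CPM), epithelial genes reach 10766 CPM or more in the 3 HOXA13 libraries alone, and pluripotency genes are highest in CONTROL 2 (1616 CPM).

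The comparison of HOXA13 with CONTROL asked whether the imprinted genes differ in level when HOXA13 is expressed. No member passed the quasi-likelihood test of edgeR at 0.05 after Benjamini-Hochberg adjustment over all 13600 genes, a threshold that 0.309% of all tested genes passed. At an unadjusted p under 0.05 there were 12 of 37 members, against 14.1% of all tested genes. DESeq2 called 4 members (Nnat, Mest, Grb10 and Zdbf2), all lower in HOXA13, where it called 5.05% of all genes, with 1.94% lower. The edgeR 4 method and edgeR without a filter each called Nnat alone, where they called 0.779% and 0.921% of all genes. Limma voom with sample quality weights called 14 members, 4 higher and 10 lower, where it called 15.4% of all genes, with 9.11% higher and 6.34% lower. The 4 were Dio3, Peg10, Phlda2 and Slc38a4, and the 10 were Gnas, Grb10, Impact, Inpp5f, Ndn, Nnat, Peg3, Sgce, Zdbf2 and Zim1. Leaving out CONTROL 2 gave 12 calls in edgeR, 3 higher and 9 lower, where 14.2% of all genes were called, with 7.92% higher and 6.32% lower. The 3 were Dio3, Peg10 and Phlda2, and the 9 were Gnas, Grb10, H19, Inpp5f, Mest, Nnat, Peg3, Sgce and Zdbf2. A group difference without overlap, every HOXA13 value above or below every CONTROL value, was found in 13 of 37 members (35.1%) against 20.0% of all tested genes. Of the 13, 6 were higher (11.5% of all genes) and 7 were lower (8.52% of all genes). The log2 fold change was below 0 for 25 of 37 members (67.6%) against 51.2% of all tested genes, and its median was -0.31 against -0.01. This moved with the setting, from 20 of 37 members below 0 in voom to 28 of 37 without HOXA13 1. With 1 library left out the median of the members ran from -0.18 (without CONTROL 2) to -0.47 (without CONTROL 3). Among the 23 tested members expressed from the paternal allele 16 were below 0, with a median of -0.38, and among the 12 expressed from the maternal allele 7 were below 0, with a median of -0.05. The 12 include Ube3a, which is imprinted only in neurons.

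**Figure D3:**
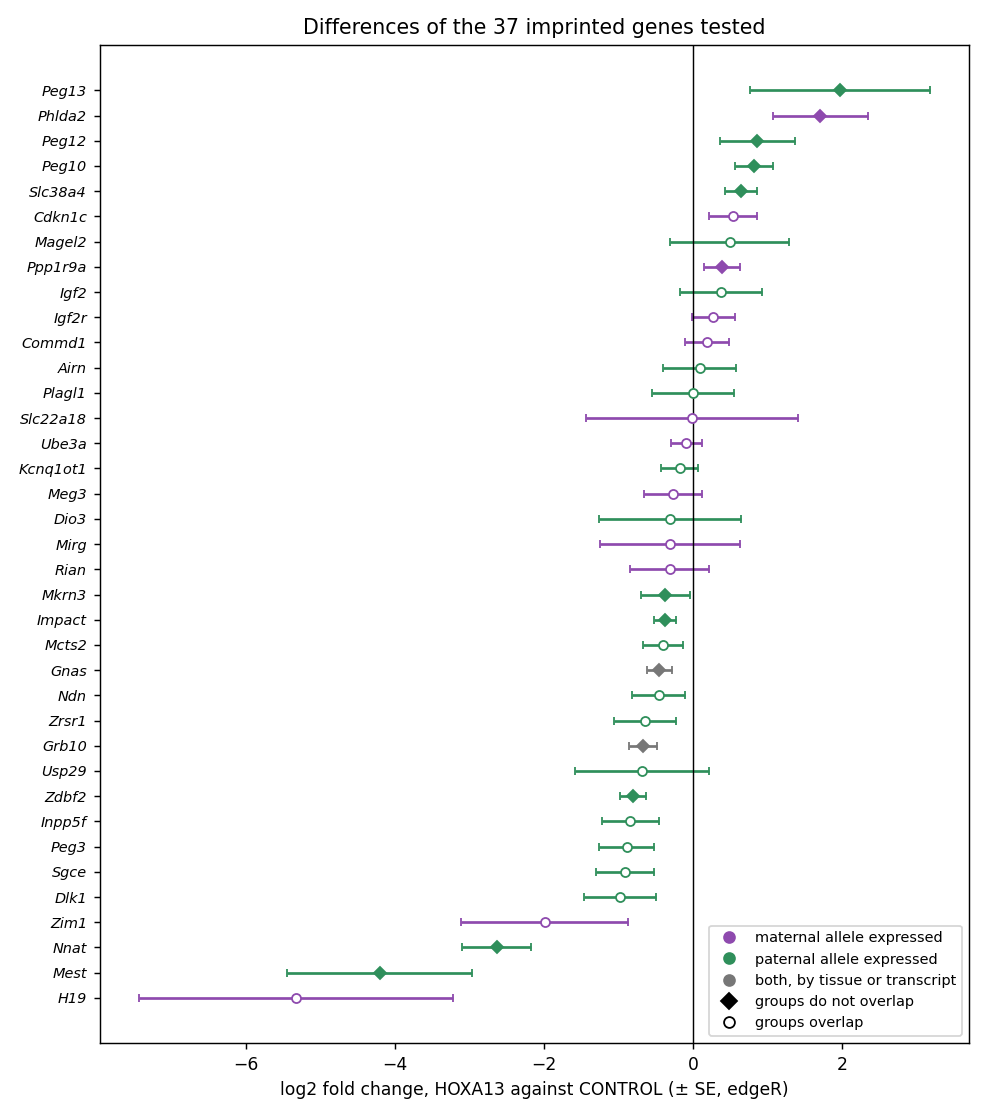
Log2 fold change of HOXA13 against CONTROL (± SE, edgeR) for the 37 tested imprinted genes, coloured by the allele that is known to be expressed, with filled diamonds where the groups do not overlap. Nnat, Mest and H19 lie farthest to the left and Peg13 and Phlda2 farthest to the right, while most genes lie within 1 log2 unit of 0.

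Nnat showed the lowest adjusted p of the members. It encodes neuronatin, a small membrane proteolipid of the endoplasmic reticulum, and is expressed from the paternal allele (mm9, chromosome 2, 157385814 to 157388258, plus strand, downstream of the promoter printed above). Its level was 228, 76.4 and 173 CPM in CONTROL against 14.1, 28.4 and 34.1 CPM in HOXA13. All 3 HOXA13 libraries lay below the lowest CONTROL library, which was CONTROL 2. This was a log2 fold change of -2.64 ± 0.46 (SE), with an adjusted p of 0.0749 in edgeR and 1.1e-07 in DESeq2, and up to 0.353 in the other alternatives. Nnat lies inside Blcap, which runs on the opposite strand, and the strand setting used in counting is not stated. Within each library, Nnat made up 62.6%, 44.7% and 56.6% of the counts of the pair in CONTROL and 13.2%, 21.0% and 25.5% in HOXA13. The mean share was 54.6% ± 9.10 (SD, n = 3) in CONTROL and 19.9% ± 6.24 (SD, n = 3) in HOXA13, without overlap. The mesenchyme and feeder sum was, like Nnat, lowest within each group in CONTROL 2 (4016 CPM) and HOXA13 1 (3124 CPM). The groups overlapped in that sum, and its part in the Nnat values was not tested.

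Mest, a paternally expressed gene of the alpha/beta hydrolase family that is typical of embryonic mesoderm, was low throughout (chromosome 6, 30673547 to 30698457, plus strand). There were 246, 24 and 49 counts in CONTROL and 0, 9 and 11 counts in HOXA13, or 17.4, 1.92 and 3.67 CPM and 0, 0.527 and 0.667 CPM. The groups did not overlap, and CONTROL 1 was at least 75.7-fold above the floor that 0 counts allow. For Mest the log2 fold change was -4.21 ± 1.24, with an adjusted p of 0.185 in edgeR and 0.00341 in DESeq2. Without CONTROL 1 it was -2.78, with the highest adjusted p of the alternatives (edgeR, 0.655). Mest shares 904 bases at its end with Copg2 on the opposite strand, and its share of the pair's counts was 23.1%, 4.40% and 7.12% in CONTROL and 0%, 1.22% and 1.27% in HOXA13. The mesenchyme and feeder sum was also highest in CONTROL 1, and the part of that list in the Mest values was not tested.

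H19 and Igf2 share one control region on distal chromosome 7 and are expressed from opposite alleles. H19 is a maternally expressed noncoding RNA (149761434 to 149764048, minus strand), and Igf2 encodes the fetal growth factor IGF2 (149836673 to 149852721, minus strand). H19 had 842, 0 and 12 counts in CONTROL and 0, 9 and 15 counts in HOXA13. Its level was thus 59.7, 0 and 0.900 CPM in CONTROL against 0, 0.527 and 0.909 CPM in HOXA13, so 1 CONTROL library was on and the other 5 were at or near the floor. CONTROL 1 was at least 249-fold above the floor of 3 counts, which stood for 0.240 CPM in CONTROL 2 and 0.231 CPM in HOXA13 1, the libraries with 0 counts. The log2 fold change of -5.33 ± 2.10 (edgeR, adjusted p = 0.309) rested on CONTROL 1, and without that library it was 0.09 (adjusted p = 0.999). Over its alternatives the adjusted p of H19 ran from 0.0260, without CONTROL 2, to that value.

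Igf2 was abundant also in the libraries with little or no H19 RNA. It measured 3199, 805 and 2219 CPM in CONTROL against 1096, 3356 and 3597 CPM in HOXA13. The groups overlapped, with CONTROL 2 and HOXA13 1 lowest, and these were also the 2 libraries with 0 counts of H19. The log2 fold change of Igf2 was 0.37 ± 0.55 (edgeR, adjusted p = 0.828). H19 made up 1.83% of the counts of the H19 and Igf2 pair in CONTROL 1 (95% exact binomial interval 1.71% to 1.96%), 0.0405% in CONTROL 3, 0.0157% in HOXA13 2 and 0.0253% in HOXA13 3. In CONTROL 2 and HOXA13 1 the share was 0, where 3 counts would be 0.0298% and 0.0210%. The mesenchyme and feeder sum was 15341 CPM in CONTROL 1, with 59.7 CPM of H19, and 12389 CPM in CONTROL 3, with 0.900 CPM of H19, and its part in the H19 values was not tested.

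**Figure D4:**
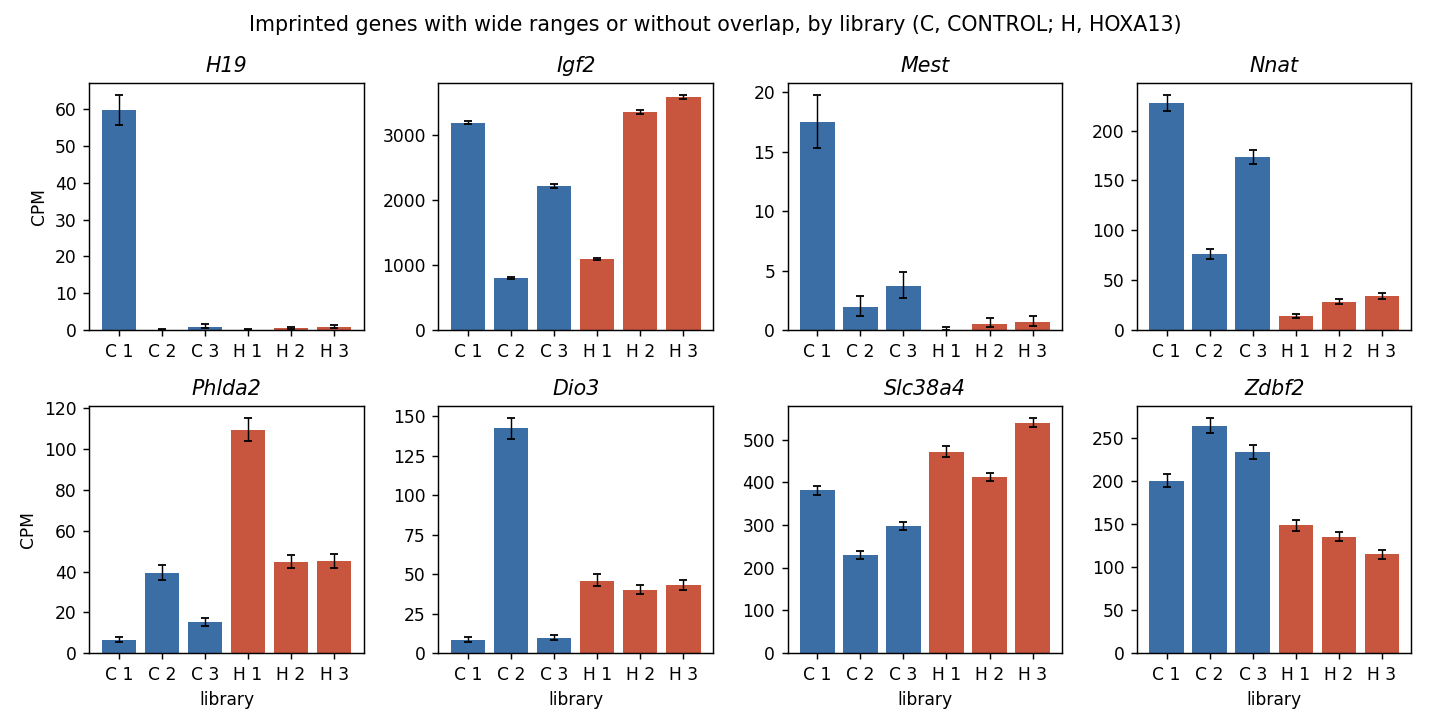
CPM of 8 imprinted genes in each library (C, CONTROL in blue; H, HOXA13 in red), with bars as levels and error bars as exact 95% Poisson intervals, which cover counting error only. H19 is above 1 CPM in CONTROL 1 alone (59.7 CPM), Dio3 is highest in CONTROL 2 (142 CPM), Nnat and Zdbf2 are lower in the 3 HOXA13 libraries, and Phlda2 and Slc38a4 are higher there.

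The cluster on chromosome 7 around Kcnq1ot1 holds growth restrictors of the placenta. Phlda2 (150687450 to 150688446, minus strand), a pleckstrin homology domain protein that limits placental growth and is expressed from the maternal allele, was at 6.67, 39.3 and 15.2 CPM in CONTROL against 110, 44.7 and 45.0 CPM in HOXA13. The groups did not overlap, but CONTROL 2 came close to HOXA13 2 and 3. Phlda2 had a log2 fold change of 1.70 ± 0.64, with an adjusted p of 0.281 in edgeR and 0.0536 in DESeq2. It was 2.59 without CONTROL 2 (adjusted p = 0.0114) and 1.13 without HOXA13 1 (adjusted p = 0.597), both in edgeR and the ends of its range over the alternatives. A trophoblast list of 9 genes other than Peg10 was also lowest in CONTROL 1 and highest in HOXA13 1. Its sums were 45.9, 177 and 97.1 CPM in CONTROL against 204, 126 and 129 CPM in HOXA13. Of the 9 genes 3 had no overlap, against 20.0% of all tested genes, with Tfap2c and Ascl2 higher and Hand1 lower in HOXA13. The marker Prl3d1 was at 0, and the part of this list in the Phlda2 values was not tested.

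Cdkn1c, the maternally expressed inhibitor of cyclin-dependent kinases p57 (150644255 to 150646955, minus strand), was at 73.6, 164 and 108 CPM in CONTROL against 226, 127 and 149 CPM in HOXA13, with overlap (log2 fold change 0.54 ± 0.32, edgeR, adjusted p = 0.523). Kcnq1ot1, the paternally expressed noncoding RNA that silences the cluster on its own allele, was at 40.3, 65.6 and 45.8 CPM in CONTROL against 51.8, 36.4 and 45.5 CPM in HOXA13 (log2 fold change -0.18 ± 0.25, edgeR, adjusted p = 0.810). Neither gene separated the groups by its own level. Their ratio did, as Kcnq1ot1 made up 35.4%, 28.6% and 29.7% of the counts of the pair in CONTROL and 18.6%, 22.4% and 23.4% in HOXA13. Phlda2 made up 13.3% ± 5.61 (SD, n = 3) of the counts of Phlda2 and Cdkn1c in CONTROL and 27.3% ± 4.79 (SD, n = 3) in HOXA13, also without overlap. Slc22a18, a membrane transporter gene of the cluster, was near the floor, with 6, 25 and 0 counts in CONTROL and 10, 7 and 20 counts in HOXA13, and it was scattered over both groups (log2 fold change -0.01 ± 1.42, edgeR, adjusted p = 0.998). Kcnq1, the potassium channel gene in which Kcnq1ot1 starts, had between 0 and 9 counts and did not enter the main test.

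**Figure D5:**
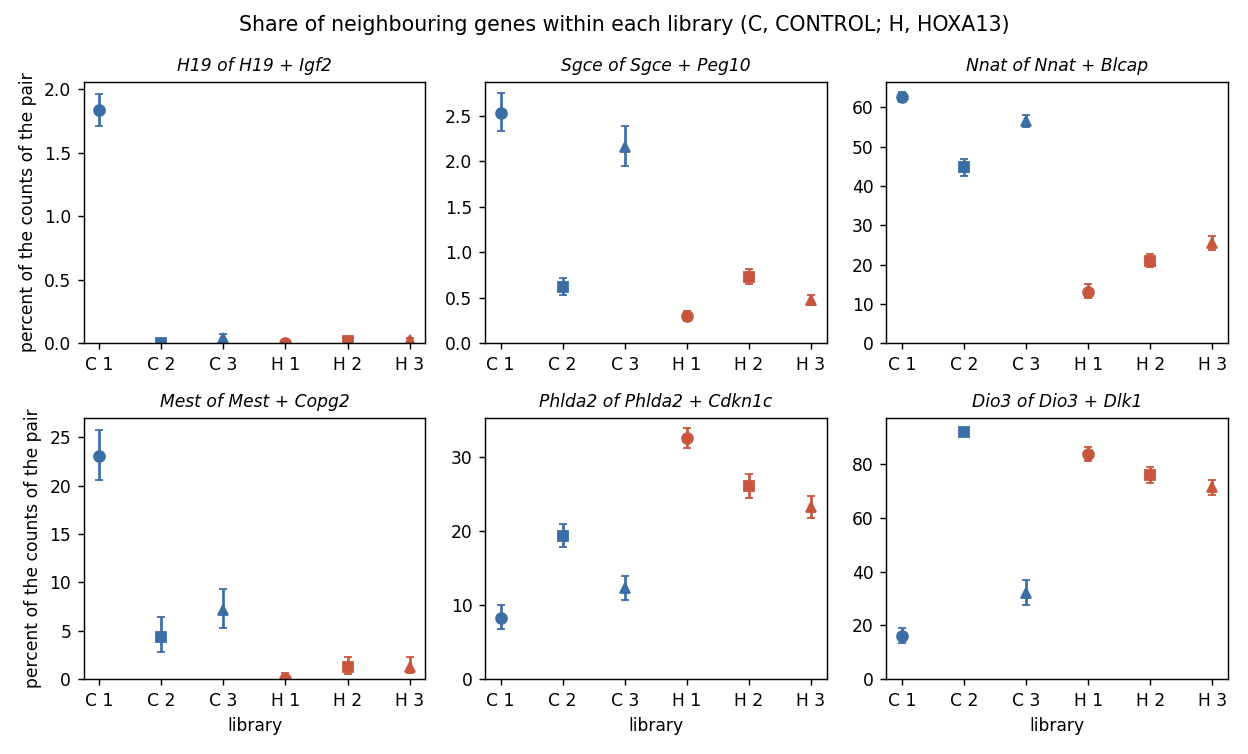
Share of the first gene in the counts of a pair of neighbouring genes in each library (C, CONTROL in blue; H, HOXA13 in red), in percent with exact 95% binomial intervals, which cover counting error only. Nnat and Mest have lower shares in the 3 HOXA13 libraries than in any CONTROL library and Phlda2 has higher ones, while for Sgce and Dio3 CONTROL 2 lies with the HOXA13 libraries or beyond them and H19 is above 1% in CONTROL 1 alone.

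Shares of this kind compare neighbours inside one library and do not depend on the scaling between libraries. They were computed for 14 pairs, and 4 had no overlap between the groups (Nnat with Blcap, Mest with Copg2, Phlda2 with Cdkn1c, and Kcnq1ot1 with Cdkn1c). Of all tested genes taken singly 20.0% had no overlap, and no such share was computed for other pairs. Nnat, Mest and Phlda2 already had no overlap by their own levels, so their pairs largely repeat that separation. Each of the 4 had p = 0.1 in the exact two-sided permutation test, the smallest that 3 against 3 libraries can give, and 0.35 after Benjamini-Hochberg adjustment over the 14 pairs.

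Zdbf2 encodes a zinc finger protein, is paternally expressed and is known for its regulation from an upstream promoter active in the early embryo (chromosome 1, 63319839 to 63361150, plus strand). Levels of 200, 264 and 233 CPM were found in CONTROL and of 148, 135 and 115 CPM in HOXA13. All HOXA13 libraries lay below all CONTROL libraries. For Zdbf2 the log2 fold change was -0.81 ± 0.17, with an adjusted p of 0.102 in edgeR and 0.00413 in DESeq2, and up to 0.513 in the other alternatives. Its direction was opposite to that of its chromosome, since the median log2 fold change of 470 chromosome 1 genes with at least 16 CPM was 0.53 and 92.1% of them were above 0.

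Grb10, an adaptor protein that restrains insulin and growth factor receptor signalling (chromosome 11, 11830511 to 11938686, minus strand), is maternally expressed in most tissues and paternally in neurons. It was at 323, 274 and 368 CPM in CONTROL against 170, 245 and 189 CPM in HOXA13. The groups did not overlap, and the gap lay between CONTROL 2 and HOXA13 2. Grb10 had a log2 fold change of -0.67 ± 0.19, with an adjusted p of 0.176 in edgeR and 0.0438 in DESeq2, and from 0.0107 to 0.592 over all alternatives. The median of 675 chromosome 11 genes with at least 16 CPM was -0.17, with 27.1% above 0.

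Gnas, which encodes the stimulatory G protein subunit and several further transcripts imprinted in different directions, was at 1061, 888 and 1094 CPM in CONTROL against 649, 791 and 784 CPM in HOXA13 (log2 fold change -0.45 ± 0.16, edgeR, adjusted p = 0.270). Gnas was called by voom (adjusted p = 0.0224) and by edgeR without CONTROL 2 (adjusted p = 0.0371), and over its alternatives the adjusted p ran up to 0.646. Counts per gene symbol do not separate these transcripts. Impact, a paternally expressed inhibitor of the eIF2 kinase GCN2, was at 316, 277 and 296 CPM in CONTROL against 249, 209 and 224 CPM in HOXA13 (log2 fold change -0.38 ± 0.15, edgeR, adjusted p = 0.295). Voom called Impact (adjusted p = 0.0295), and over its alternatives the adjusted p ran up to 0.687. In both genes the groups were separate but close, and both were abundant in every library.

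Higher values without overlap were found in 4 of the 23 tested paternally expressed members (Peg10, Slc38a4, Peg13 and Peg12) and in 2 of the 12 maternally expressed ones (Phlda2 and Ppp1r9a), where 11.5% of all tested genes had them. Peg10, a gene derived from a retrotransposon that is required for the placenta (chromosome 6, 4697306 to 4710514, plus strand), was at 1526, 2423 and 1313 CPM in CONTROL against 3443, 2483 and 3339 CPM in HOXA13. CONTROL 2 was almost level with HOXA13 2, and the log2 fold change was 0.82 ± 0.26, with an adjusted p of 0.214 in edgeR and 0.0612 in DESeq2. Without CONTROL 2 it was 1.11 (edgeR, adjusted p = 0.00592), and over all alternatives the adjusted p of Peg10 ran from 0.00427 to 0.646. Sgce, the gene of epsilon-sarcoglycan, starts 102 bases from Peg10 on the opposite strand and is expressed from the same allele. It ranged from 15.1 to 39.7 CPM in CONTROL and from 10.2 to 18.3 CPM in HOXA13, with overlap (log2 fold change -0.91 ± 0.39, edgeR, adjusted p = 0.349). Sgce was called by voom (-0.92, adjusted p = 0.0414) and by edgeR without CONTROL 2 (-1.23, adjusted p = 0.0287), and over its alternatives the adjusted p ran up to 0.753. Its levels ranked the libraries in the order of the mesenchyme and feeder sum, in which the order of CONTROL 2 and HOXA13 3 rests on Fn1. The part of that list in the Sgce values was not tested. The fitted changes of these 2 neighbours thus had opposite signs, and Sgce made up 2.54%, 0.620% and 2.16% of the pair's counts in CONTROL and 0.296%, 0.733% and 0.474% in HOXA13, with CONTROL 2 inside the HOXA13 range. Ppp1r9a, a maternally expressed neighbour that encodes the actin-binding protein neurabin, was at 20.7, 30.7 and 34.5 CPM in CONTROL against 39.2, 38.3 and 34.8 CPM in HOXA13, separate by a small gap (log2 fold change 0.39 ± 0.24, edgeR, adjusted p = 0.535). Asb4, the fourth gene of the cluster, had between 0 and 12 counts and did not enter the main test.

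Slc38a4, a paternally expressed amino acid transporter of the placenta (chromosome 15, 96825254 to 96886387, minus strand), was at 381, 230 and 298 CPM in CONTROL against 472, 412 and 540 CPM in HOXA13. The groups were separate by a small gap, and the log2 fold change was 0.65 ± 0.21 (edgeR, adjusted p = 0.234). Voom called Slc38a4 at 0.61 (adjusted p = 0.0294), and over its alternatives the adjusted p ran up to 0.680. Peg13, a paternally expressed noncoding RNA, had 20, 0 and 16 counts in CONTROL and 22, 50 and 95 counts in HOXA13, or at most 1.42 CPM and 5.76 CPM. The highest library was at least 24.0-fold above the floor of CONTROL 2, and the log2 fold change of Peg13 was 1.97 ± 1.20 (edgeR, adjusted p = 0.530).

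The Dlk1-Dio3 cluster on chromosome 12 did not separate the groups. Its maternally expressed noncoding RNAs are Meg3, Rian and Mirg, and its paternally expressed coding genes are Dlk1, Rtl1 and Dio3. Meg3 was at 88.0, 74.0 and 30.4 CPM in CONTROL against 70.2, 48.9 and 39.9 CPM in HOXA13 (log2 fold change -0.27 ± 0.39, edgeR, adjusted p = 0.821). All 6 libraries thus held Meg3 RNA, and Rian, the host of a large set of small nucleolar RNAs, was also present in all, at 13.2 to 64.4 CPM. Mirg, a host transcript of microRNAs, was at 3.90, 7.12 and 0.600 CPM in CONTROL against 4.07, 4.39 and 0.909 CPM in HOXA13, an 11.9-fold range with CONTROL 3 and HOXA13 3 lowest. Poly-A selected counts of Rian and Mirg do not include the small RNAs they host.

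Of the coding genes in that cluster, Dlk1, a ligand related to Notch ligands, was at 43.5, 12.0 and 20.7 CPM in CONTROL against 8.76, 12.7 and 17.2 CPM in HOXA13 (log2 fold change -0.98 ± 0.48, edgeR, adjusted p = 0.423), and its log2 fold change was -0.36 without CONTROL 1. Dio3, the deiodinase that inactivates thyroid hormone, was at 8.44, 142 and 9.82 CPM in CONTROL against 46.0, 40.3 and 43.4 CPM in HOXA13. The HOXA13 libraries lay close together and between the CONTROL libraries, with CONTROL 2 alone above them. The log2 fold change of Dio3 was -0.31 ± 0.95 (edgeR, adjusted p = 0.929), and without CONTROL 2 its direction turned, to 2.23 (edgeR, adjusted p = 0.00115, with up to 0.970 in the other alternatives). Dio3 made up 16.3%, 92.2% and 32.2% of the counts of Dio3 and Dlk1 in CONTROL and 84.0%, 76.1% and 71.6% in HOXA13. Rtl1, a gene derived from a retrotransposon, had 0 counts in each CONTROL library and 9, 10 and 0 counts in HOXA13. It did not enter the main test. Among the marker lists, the pluripotency sum was likewise highest in CONTROL 2 (1616 CPM) and intermediate in HOXA13, and its part in the Dio3 values was not tested.

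The Peg3 cluster on proximal chromosome 7 had lower mean levels in HOXA13 with overlapping groups. Peg3, a paternally expressed zinc finger gene (6656603 to 6683132, minus strand), was at 704, 264 and 588 CPM in CONTROL against 186, 342 and 309 CPM in HOXA13. CONTROL 2 fell within the HOXA13 range. Peg3 ranked the 6 libraries in the same order as the mesenchyme and feeder sum, which ran from 15341 CPM in CONTROL 1 to 3124 CPM in HOXA13 1. In that sum the order of CONTROL 2 and HOXA13 3 rests on Fn1 alone, at 2033 and 4976 CPM. The part of that list in the Peg3 values was not tested. For Peg3 the log2 fold change was -0.89 ± 0.37 (edgeR, adjusted p = 0.332), and without CONTROL 2 it was -1.22 (edgeR, adjusted p = 0.0120, with up to 0.718 in the other alternatives). Zim1, the maternally expressed zinc finger gene beside it, was at 3.90, 0.959 and 5.62 CPM in CONTROL against 2.00, 0.527 and 0.121 CPM in HOXA13 (log2 fold change -1.99 ± 1.12, edgeR, adjusted p = 0.491). Voom called Zim1 at -3.74 (adjusted p = 0.0421), and over its alternatives the adjusted p ran up to 0.833. Without HOXA13 1 the log2 fold change was -3.41 in edgeR. HOXA13 3 had 2 counts of Zim1 (95% exact Poisson interval 0.0147 to 0.438 CPM). Usp29, a ubiquitin-specific peptidase gene that shares its promoter region with Peg3, ranged from 0.384 to 3.76 CPM over the 6 libraries.

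The Igf2r cluster on chromosome 17 had overlapping groups for both of its genes. Igf2r, the maternally expressed receptor that removes IGF2 (12875272 to 12962530, minus strand), was at 315, 228 and 388 CPM in CONTROL against 240, 468 and 414 CPM in HOXA13 (log2 fold change 0.27 ± 0.29, edgeR, adjusted p = 0.746). Airn, the paternally expressed noncoding RNA that silences it, was at 5.82, 3.36 and 6.15 CPM in CONTROL against 7.30, 5.21 and 3.76 CPM in HOXA13 (log2 fold change 0.08 ± 0.49, edgeR, adjusted p = 0.965). The 2 genes overlap by 28354 bases on opposite strands, and Airn made up at most 2.95% of the pair's counts in any library.

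In the Prader-Willi and Angelman region on chromosome 7, the tested genes were mostly low. Snrpn had 3, 0 and 0 counts in CONTROL and 0 in each HOXA13 library, and Snurf, with which it shares a bicistronic transcript, had 0 in all libraries. Reads of that transcript may have been dropped as ambiguous in counting, so Snrpn is not readable here. Ube3a, a ubiquitin ligase gene that is imprinted only in neurons, was at 107, 76.9 and 125 CPM in CONTROL against 91.6, 108 and 90.6 CPM in HOXA13 (log2 fold change -0.09 ± 0.21, edgeR, adjusted p = 0.893). Mkrn3, a makorin ring finger gene, was at 8.72, 12.5 and 9.00 CPM in CONTROL against 7.92, 7.73 and 7.64 CPM in HOXA13, separate by a small gap (log2 fold change -0.37 ± 0.33, edgeR, adjusted p = 0.687). Peg12, a paternally expressed gene of the GSK3-binding FRAT family, was at 4.47, 2.00 and 6.07 CPM in CONTROL against 8.76, 6.91 and 7.15 CPM in HOXA13, also separate (log2 fold change 0.86 ± 0.50, edgeR, adjusted p = 0.510). Ndn, the gene of the growth suppressor necdin, was at 61.1, 28.1 and 51.3 CPM in CONTROL against 46.6, 33.1 and 22.4 CPM in HOXA13, with overlap (log2 fold change -0.46 ± 0.36, edgeR, adjusted p = 0.638). Voom called Ndn at -0.87 (adjusted p = 0.0422), and over its alternatives the adjusted p ran up to 0.937. Magel2, a related MAGE family gene, ranged from 1.04 to 5.00 CPM, with overlap.

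The remaining members overlapped between the groups. Plagl1, a paternally expressed zinc finger gene, ranged from 34.0 to 151 CPM in CONTROL, with CONTROL 2 highest, and from 53.1 to 109 CPM in HOXA13 (log2 fold change -0.01 ± 0.55, edgeR, adjusted p = 0.998). Inpp5f, an inositol phosphatase gene with an imprinted short transcript that symbol-level counts do not separate, ranged from 14.7 to 39.8 CPM in CONTROL and from 13.9 to 19.1 CPM in HOXA13 (log2 fold change -0.84 ± 0.38, edgeR, adjusted p = 0.377). Without CONTROL 2, Inpp5f had a log2 fold change of -1.19 (edgeR, adjusted p = 0.0120, with up to 0.735 in the other alternatives). Mcts2 ranged from 13.2 to 25.5 CPM, Zrsr1 from 24.3 to 78.3 CPM and its host Commd1 from 28.1 to 54.3 CPM. Mcts2 and Zrsr1 are retrocopies inside host genes, so reads of their parent genes or hosts make their counts uncertain. Rasgrf1 and Nap1l5 had 0 counts in each CONTROL library and at most 11 counts in HOXA13, which is too low for a comparison.

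Further imprinted genes and the factors that maintain imprints were examined as lists. Of 41 other imprinted genes 37 were listed and 28 tested. None passed edgeR's test, 2 had an unadjusted p under 0.05, DESeq2 called 1 (Sfmbt2), and voom called 2, where the shares over all genes were 14.1%, 5.05% and 15.4%. Their median log2 fold change was -0.14, and 3 of 28 had no overlap, against 20.0% of all tested genes. Sfmbt2, a paternally expressed Polycomb-related gene of the placenta, was at 50.1, 71.0 and 84.8 CPM in CONTROL against 100.1, 174 and 171 CPM in HOXA13 (log2 fold change 1.11 ± 0.28, edgeR, adjusted p = 0.136). Ascl2, a trophoblast transcription factor gene, was at 0.851, 6.88 and 3.97 CPM in CONTROL against 12.9, 8.79 and 8.49 CPM in HOXA13 (log2 fold change 1.37 ± 0.68, edgeR, adjusted p = 0.425). Nap1l4, a nucleosome assembly gene, was at 199, 201 and 202 CPM in CONTROL against 191, 147 and 154 CPM in HOXA13 (log2 fold change -0.29 ± 0.16, edgeR, adjusted p = 0.465).

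Among 24 factors that establish or keep imprints, 23 were tested. No factor passed edgeR's test, none had an unadjusted p under 0.05, DESeq2 called none, and voom called 4 of 23, where it called 15.4% of all genes. The 4 were Dnmt3b, Hells and Zfp42, higher, and Dnmt3a, lower. Zfp42 and Dppa3 are also on the list of pluripotency genes. Without CONTROL 2, edgeR called the same 4 and Uhrf1 (higher), where 14.2% of all genes were called. The median log2 fold change of the 23 was 0.08. Tet2, a dioxygenase that oxidises methylated cytosine, was at 31.9, 30.2 and 25.1 CPM in CONTROL against 32.0, 42.1 and 36.1 CPM in HOXA13 (log2 fold change 0.34 ± 0.21, edgeR, adjusted p = 0.538). Arid4a, a chromatin regulator, was at 41.3, 42.0 and 39.0 CPM in CONTROL against 43.2, 58.5 and 47.8 CPM in HOXA13 (log2 fold change 0.29 ± 0.19, edgeR, adjusted p = 0.568). These 2 of 23 were the only factors without overlap, against 20.0% of all tested genes. Zfp57 was present in all libraries, at 75.4, 150 and 68.9 CPM in CONTROL against 85.1, 46.3 and 62.1 CPM in HOXA13, and its partner Trim28 ranged from 496 to 944 CPM. Dnmt3b, a de novo DNA methyltransferase gene, was at 13.2, 119 and 24.8 CPM in CONTROL against 150, 113 and 133 CPM in HOXA13. In this gene, as in Dio3, CONTROL 2 lay with the HOXA13 libraries or above. Without CONTROL 2 the log2 fold change of Dnmt3b went from 1.33 (adjusted p = 0.449) to 2.78 (adjusted p = 0.00115), both in edgeR. Voom called Dnmt3b at 2.46 (adjusted p = 0.00246). Zfp57, Trim28 and Dnmt3b were singled out after their values were seen.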

How the data were processed

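RNA was measured in 3 CONTROL and 3 HOXA13 libraries, grouped by sample title. The values that the authors deposited are raw read counts by gene symbol, made from stranded poly-A libraries aligned to mm9 with TopHat (2.0.14 in the submitters' processing notes) and counted with HTSeq 0.6.1p1. Annotation, strand setting and handling of multiply aligned reads are not given in the sources used here, so overlapping genes are uncertain. Totals were 12279884 to 17331638 counts.

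The main tests used edgeR 4.0.16 in R 4.3.3 (filterByExpr, minimum count 10 and total 15, TMM scaling, glmQLFit and glmQLFTest on the group, Benjamini-Hochberg adjustment over 13600 genes, threshold 0.05). Standard errors came from the F statistic. Other settings were DESeq2 1.42.0 (used by the study), limma 3.58.1 voom with sample quality weights, the newer edgeR 4 method, RLE and upper quartile scaling, no filter, a mean of at least 50 counts, a replicate block, and leaving out each library. The code was tested on simulated data. Intervals and floors (3 counts) cover counting error only.

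Members, gene lists and pairs were chosen with earlier results of these data known. Values in every library are given for members past the threshold in the main test or without overlap, members with 1 library at or under 3 counts and another of at least 1 CPM, members with a 10-fold range, and the main genes of each cluster. Other imprinted genes and imprint factors are named where past the threshold in the main test or without overlap, and marker lists are given by sums and counts, with some genes named. Positions are from GENCODE M1 on mm9 (41 of 43 members matched).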

Additional observations from a re-analysis of the deposited data

How the results depend on the processing

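Of the 37 tested members, 24 kept the direction of their fold change in each of up to 14 alternatives and 13 turned in at least 1. The count of members called, 0 in edgeR, was 4 in DESeq2, 14 in limma voom with sample quality weights, 1 with the edgeR 4 method (Nnat, adjusted p = 0.0416, where 0.779% of all genes were called), 1 without a filter (Nnat, adjusted p = 0.0151, where 0.921% were called), and 0 to 12 when 1 library was left out, with 12 without CONTROL 2 and 0 without any other library. RLE scaling, upper quartile scaling and the filter on a mean of 50 counts gave 0. With a replicate block the count was also 0 (5 of 37 at an unadjusted p under 0.05, against 1392 of 13600 genes), and the numbers were not taken to pair the samples, since same-numbered libraries had correlations of -0.21, -0.27 and 0.10. The calls among other imprinted genes were 1 in DESeq2, 2 in voom and 0 to 2 with a library left out, and among imprint factors 4 in voom and 0 to 5 with a library left out, in both lists highest without CONTROL 2. In settings chosen after seeing the data, 12 or 13 members had no overlap under other scalings (20.3% to 20.6% of all genes), and 13 to 23 with a library left out, which by construction cannot lower the count, with 23 without CONTROL 2, where 49.2% of all genes had none, and at most 16 without another library, where 24.9% to 30.2% had none.

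The log2 fold changes that turned were, in voom, -0.34 for Airn, 0.00086 for Meg3, 0.26 for Rian, 0.50 for Mirg, 1.86 for Dio3, 0.46 for Plagl1 and 2.80 for Slc22a18. With the replicate block they were 1.08 for Dio3, 0.24 for Plagl1 and 0.90 for Slc22a18, and the edgeR 4 method gave 0.030 for Slc22a18. With 1 library left out the range was -6.13 to 0.085 for H19, -0.84 to 2.23 for Dio3, -0.026 to 0.81 for Igf2, -0.20 to 0.27 for Airn, -0.75 to 0.27 for Rian, -0.83 to 0.45 for Mirg, -0.39 to 0.93 for Plagl1, -0.10 to 1.24 for Magel2, -0.28 to 0.051 for Ube3a, -0.35 to 0.033 for Kcnq1ot1, -0.62 to 1.84 for Slc22a18 and -0.038 to 0.39 for Commd1. Why these fold changes turned was not tested, also for H19 without CONTROL 1 and Dio3 without CONTROL 2. Leaving out 1 library moved the fold change by over 1.5 times without turning it for further members, beside those with such values above. They included Usp29 (-1.32 without HOXA13 3), Zrsr1 (-0.020 without CONTROL 1) and Peg13 (1.39 without CONTROL 2 and 1.38 without HOXA13 3). Over the fits with 1 library left out, Igf2r ran from 0.051 to 0.50, Cdkn1c from 0.24 to 0.86 and Meg3 from -0.63 to -0.0041. Ndn ran from -0.77 to -0.25, Ppp1r9a from 0.18 to 0.52 and Peg12 from 0.51 to 1.21. Mkrn3 ran from -0.49 to -0.21 and Sgce from -1.23 to -0.59. Snrpn, Rtl1, Rasgrf1, Nap1l5, Asb4 and Kcnq1 stayed within 12 counts and did not enter the main test. DESeq2 and edgeR without a filter did fit them, and neither called any of them.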
